A study of Mus musculus with 12 samples.

Results

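Nuclear pore and nuclear transport genes were followed in eosinophils of gonadal adipose tissue, subcutaneous adipose tissue and blood. They were taken by symbol from the protein-coding genes of the GENCODE M21 annotation, as the Nup genes that carry a number and the Xpo, Ipo, Kpna, Kpnb and Tnpo families. The rule found 44 genes among 21805 protein-coding genes and 54115 genes in all. They were 21 nucleoporins, 17 importins (counting Kpna, Kpnb, Ipo and Tnpo genes) and 6 exportins. Another symbol matched the names but is not annotated as protein-coding and was left out. The set was chosen by the levels in gonadal adipose and blood, since nucleoporin genes were higher in gonadal adipose than in blood, so that difference is described here and not tested. The 4 blood libraries of that difference also stand in the comparison of subcutaneous adipose with blood, whose tests are therefore not independent of the choice of genes.

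The nuclear pore complex is a ring-shaped channel through the nuclear envelope. Outer ring and inner ring nucleoporins build its scaffold, nucleoporins rich in phenylalanine and glycine fill the channel, and others form the cytoplasmic filaments, the nuclear basket and the membrane anchor. Importins carry proteins into the nucleus and exportins carry proteins and RNAs out, and the small GTPase Ran, bound to GTP in the nucleus and to GDP in the cytoplasm, gives the direction. Eosinophils are short-lived granulocytes with a lobed nucleus that leave the blood for tissues, fat among them.

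The groups were eosinophils of gonadal adipose tissue (mice 2846, 2807, 2683 and 2668), of subcutaneous adipose tissue (mice 2846, 2807, 2771 and 2668) and of blood (mice 2807, 2771, 2683 and 2668), with 1 library for each mouse and tissue. All 5 mice were untreated wild-type FVB/NJ males aged 20 weeks on chow, and every group held live cells sorted as positive for CD45, CD11b and Siglec-F. Adipose tissue had been digested with collagenase for 45 min at 37 °C before the sort, and blood had not, so tissue and digestion cannot be told apart. Values of single libraries follow the order of mice given here, and a library is also called by tissue and mouse, as in blood 2807. Levels are given as CPM, that is read counts scaled to a common library size with the TMM method of edgeR, and a gene is said to rise or fall where the edgeR quasi-likelihood test gave an adjusted p under 0.05.

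The libraries held 4379954 estimated reads in the subcutaneous library of mouse 2846 and 12477671 to 23734940 in the others, of which 1043 to 10711 fell on the exportins of a library and 2359 to 18928 on its nucleoporins. Mitochondrial ribosomal RNA took 28.1% of the reads of that shallowest library, against 4.66% to 8.79% elsewhere. Of the eosinophil markers, Siglecf averaged 341 ± 138 CPM in gonadal adipose, 307 ± 142 CPM in subcutaneous adipose and 273 ± 44.3 CPM in blood, while the granule genes Epx and Prg2 averaged at most 4.49 CPM in any group. The 8 eosinophil markers summed to 3327 to 6780.3 CPM in gonadal adipose, 3019 to 6508 CPM in subcutaneous adipose and 8025 to 8945 CPM in blood. Of these, 3 (Ptprc, Itgam and Ccr3) were lower in subcutaneous adipose than in blood. Ptprc and Itgam weighed most in the sum, with blood means of 3967.8 and 1905.5 CPM. Il5ra averaged 100.9 CPM in gonadal adipose, 120.5 CPM in subcutaneous adipose and 121.6 CPM in blood. The sum is therefore no measure of the share of eosinophils. Markers of other cells moved with the groups. The 9 macrophage markers summed to 798 to 2311 CPM in gonadal adipose, 925 to 3017 CPM in subcutaneous adipose and 319 to 611 CPM in blood, and 6 of them were higher in subcutaneous adipose than in blood. The 9 tested of 10 markers of dividing cells summed to 86.7 to 199 CPM in gonadal adipose, 73.97 to 153 CPM in subcutaneous adipose and 24.4 to 46.6 CPM in blood, and 4 of them were higher. The 6 early response genes that dissociation can induce summed to 3642 to 6232 CPM in gonadal adipose, 6646 to 9762 CPM in subcutaneous adipose and 444 to 559 CPM in blood, and all 6 were higher. Neutrophil markers, of which 5 of 7 were tested and 2 had no reads in either adipose group, summed to 186 to 408 CPM in gonadal adipose, 169 to 678 CPM in subcutaneous adipose and 2330.2 to 3620.4 CPM in blood, and 4 of them were lower. Of 7 fibroblast markers 6 were higher in subcutaneous adipose, and the same 6 were higher in gonadal adipose without overlap. Col3a1 averaged 129 CPM in gonadal adipose, 523 CPM in subcutaneous adipose and 1.42 CPM in blood, and Dcn 56.2, 70.9 and 0.0266 CPM. The fibroblast sum was highest in subcutaneous 2846, at 4130 CPM, and Pi16 held most of it in blood. The 6 T cell markers summed to 1.77 to 5.33 CPM in gonadal adipose, 23.4 to 209 CPM in subcutaneous adipose and 9.22 to 27.8 CPM in blood, and 3 of them were higher in subcutaneous adipose than in blood. The 2 tested of 4 adipocyte markers summed to up to 2.45 CPM in gonadal adipose and 0 in blood. In subcutaneous adipose they reached 17.1 CPM in the library of mouse 2846 and at most 1.74 CPM in the others. They passed the filter on low counts only through adipose libraries, where they are high, so their edgeR result carries no weight. The 6 fibroblast markers, with blood means of at most 1.42 CPM, passed that filter mainly through adipose libraries too. No marker of B cells, endothelial cells or erythroid cells passed the edgeR test for subcutaneous adipose against blood. B cell markers summed to 28.5 to 93.7 CPM in gonadal adipose, 41.8 to 184 CPM in subcutaneous adipose and 112 to 414 CPM in blood. Endothelial sums were 45.3 to 78.7, 38.3 to 193 and 83.3 to 129 CPM. Erythroid sums were 21.1 to 99.7, 7.65 to 230 and 17.7 to 8352 CPM, the highest in blood 2771. The part of these cells and of the digestion in the results that follow was not tested. In bulk RNA, more cells with a transcript and more of it per cell cannot be told apart.

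The 250 bases before the transcription start are shown for 5 genes on which the results turn. They are Nup98 and Nup93, the nucleoporin genes with the highest TPM in adipose and with the largest fold difference between gonadal adipose and blood, Ipo9, the importin with the largest rise in subcutaneous adipose, Xpo1, the exportin with the largest fold difference between gonadal adipose and blood, and Xpo6, the exportin that fell. The sequences are RefSeq entries of the reference strain on GRCm38.p6, not of FVB/NJ, in the direction of transcription. Capitals mark matches, on either strand, to any of 7 motifs, and matches that overlap or abut run together. The CCAAT box was searched as CCAAT. For the GC box the letters were GGGCGG, and for the E-box they were CACGTG. The windows are chr7:102210167-102210416, minus strand for Nup98, chr8:94214314-94214563, plus strand for Nup93, chr1:135430500-135430749, minus strand for Ipo9, chr11:23255791-23256040, plus strand for Xpo1 and chr7:126200502-126200751, minus strand for Xpo6.
Nup98: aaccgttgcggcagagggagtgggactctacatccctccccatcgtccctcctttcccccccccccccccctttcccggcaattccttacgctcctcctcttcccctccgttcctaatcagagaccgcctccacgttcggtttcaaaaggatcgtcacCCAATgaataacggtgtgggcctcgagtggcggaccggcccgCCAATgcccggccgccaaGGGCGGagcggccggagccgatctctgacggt
Nup93: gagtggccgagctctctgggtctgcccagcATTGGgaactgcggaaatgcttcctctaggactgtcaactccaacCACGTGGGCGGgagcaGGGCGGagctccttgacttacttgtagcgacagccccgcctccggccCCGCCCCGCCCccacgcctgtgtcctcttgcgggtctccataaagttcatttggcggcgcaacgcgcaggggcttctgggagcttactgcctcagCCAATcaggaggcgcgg
Ipo9: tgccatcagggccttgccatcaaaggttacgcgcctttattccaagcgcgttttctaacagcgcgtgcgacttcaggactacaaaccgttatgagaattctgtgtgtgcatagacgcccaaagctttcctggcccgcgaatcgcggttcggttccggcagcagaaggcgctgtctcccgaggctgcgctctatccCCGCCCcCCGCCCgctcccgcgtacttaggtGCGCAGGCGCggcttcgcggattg
Xpo1: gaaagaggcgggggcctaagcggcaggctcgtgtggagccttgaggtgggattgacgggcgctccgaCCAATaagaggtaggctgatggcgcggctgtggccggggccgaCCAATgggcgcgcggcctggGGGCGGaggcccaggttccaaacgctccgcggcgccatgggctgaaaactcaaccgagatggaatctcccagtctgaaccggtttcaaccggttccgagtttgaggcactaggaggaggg
Xpo6: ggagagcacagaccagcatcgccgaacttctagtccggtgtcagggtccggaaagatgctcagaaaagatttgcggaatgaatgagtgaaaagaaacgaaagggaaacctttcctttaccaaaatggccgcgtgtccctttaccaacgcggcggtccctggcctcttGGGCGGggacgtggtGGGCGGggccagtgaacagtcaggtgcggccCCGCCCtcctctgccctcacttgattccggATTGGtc

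An entry existed for 35 of the 44 genes. For these the start nearest the GENCODE gene start was taken, and for other genes the first one listed, so the windows were not chosen alike. The window of Kpna7, which holds a CCAAT box, lies 74394 bases from its gene start. A CCAAT box stood in 51.4% of them and in 34.5% of 27025 windows of the same length from all genes, and a GC box in 65.7% and 32.9%. The NRF1 motif, matched by the capitals near the end of Ipo9, stood in 14.3% and 3.86%, and the E-box in 17.1% and 6.05%. The ETS motif CCGGAAG stood in 17.1% and 7.05%, the cyclic AMP element TGACGTCA in 5.71% and 1.62%, and the AP-1 motif TGANTCA in 8.57% and 6.87%. The median GC content was 64.4% in the windows of the transport genes and 52% in all windows. Nup98, Nup93, Xpo1 and the falling gene Xpo6 each held a CCAAT box and a GC box. Of the 14 genes with a window that rose in subcutaneous adipose, 6 held a CCAAT box and 10 a GC box. These matches describe letters in a window and no binding was measured.

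In adipose eosinophils the summed level of nucleoporin transcripts was above that in blood, and the sums of importins and of exportins overlapped with blood in part. The summed level of the 20 tested nucleoporins was 912, 903, 743 and 1077 CPM in gonadal adipose, 706, 1104, 939 and 1116 CPM in subcutaneous adipose and 651, 591, 560.00 and 628 CPM in blood. All 8 adipose libraries lay above the 4 blood libraries, and the means were 909 ± 136 CPM in gonadal adipose, 966 ± 191 CPM in subcutaneous adipose and 607 ± 40.1 CPM in blood (± SD, n = 4). In TPM, which also scales by transcript length, the nucleoporin sums overlapped, at 87.4 to 143 TPM in gonadal adipose, 85.02 to 189 TPM in subcutaneous adipose and 40.4 to 91.4 TPM in blood. Importins summed to 1132 ± 42.8 CPM in gonadal adipose, 1077 ± 186 CPM in subcutaneous adipose and 917 ± 48.8 CPM in blood (± SD, n = 4). All gonadal libraries lay above all blood libraries there, while the subcutaneous library of mouse 2846, at 808 CPM, lay below them, and in TPM the lowest gonadal library (127 TPM) lay below the highest blood library (136 TPM). Exportins summed to 419.8 ± 47.8 CPM in gonadal adipose, 427 ± 76.8 CPM in subcutaneous adipose and 478 ± 19.9 CPM in blood (± SD, n = 4), with the highest adipose library above the lowest blood library. Xpo6 makes up most of the exportin sum in blood, and without it the 5 others were higher in gonadal adipose, as given with Xpo6.

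**Figure D1:**
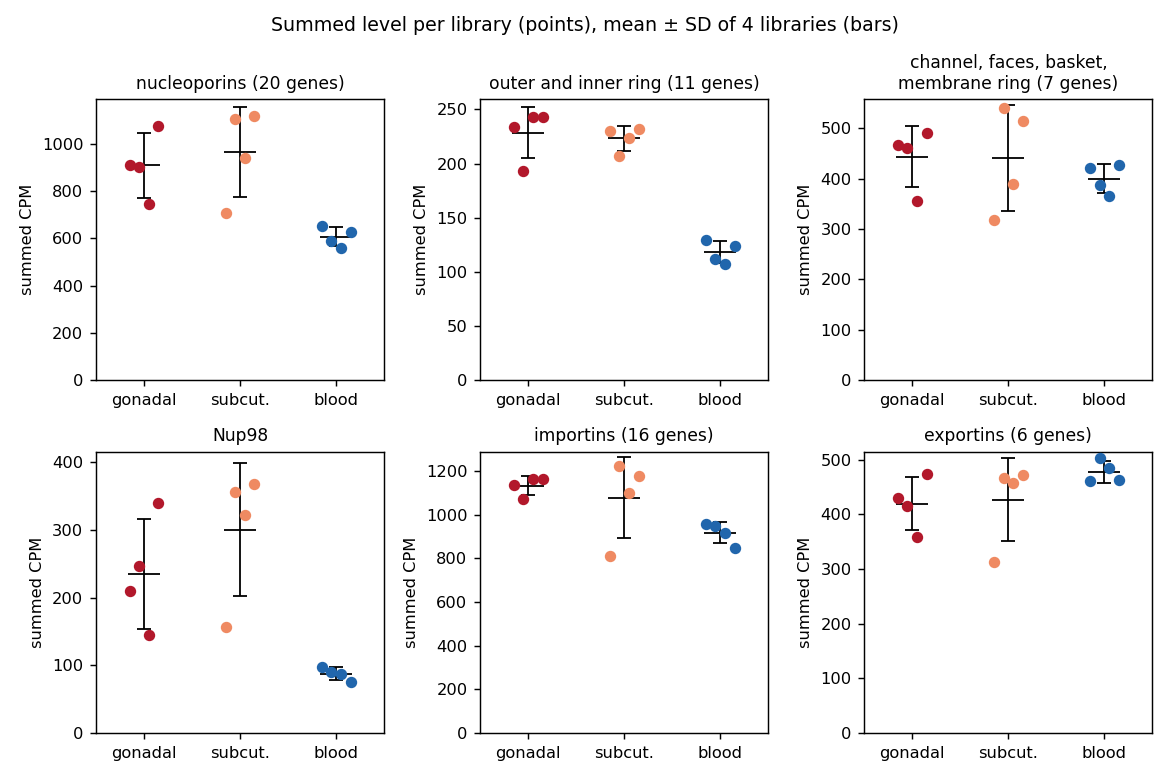
Summed CPM (vertical axes, from 0) of nucleoporins, of 3 groups within them, of importins and of exportins in gonadal adipose, subcutaneous adipose and blood. Points are libraries and bars the mean ± SD of 4. The sum of outer and inner ring genes lay at 194 to 243 CPM in gonadal adipose, 207 to 232 CPM in subcutaneous adipose and 107 to 129 CPM in blood, while the channel, face, basket and membrane ring genes overlapped between groups.

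Of the 44 genes, 42 passed the filter on low counts. Kpna7, an importin alpha, had 0 reads in all libraries, which allows up to 3, and Nup62cl, a relative of Nup62, had 3 reads in all. In subcutaneous adipose 18 of the 42 genes (42.9%) differed from blood, beside 26.8% of all 15367 genes tested. Of these 17 rose and 1 fell, beside 15.4% of all genes that rose and 11.4% that fell. The log2 fold change was above 0 for 32 of the 42 genes, beside 52.9% of all genes. By class, 10 of 20 nucleoporins, 4 of 16 importins and 3 of 6 exportins rose, and 1 exportin fell. In 17 genes all 4 subcutaneous libraries lay above all 4 blood libraries (13.8% of all genes), and in 1 all lay below (15.7%). The 17 include Nup37, which was barely detected, rests on few reads and did not pass the test. The median log2 fold change was 0.48 for nucleoporins, 0.17 for importins and 0.38 for exportins, beside 0.07 for all genes. The difference between classes was not tested. With the animal as a block 11 genes rose and none fell. Without the blood library of mouse 2668 it was also 11 and 0, and without the shallow subcutaneous library of mouse 2846 it was 17 in all. The blood library of mouse 2807, whose macrophage sum of 611 CPM was the highest in blood, was the highest blood library for 12 of the 17 genes that rose, and for 48.4% of all 2366 genes that rose.

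Gonadal adipose, whose difference from blood led to the choice of the genes, is given as a description. All 4 gonadal libraries lay above all blood libraries for 15 of the 42 genes (18.6% of all genes), 8 of them nucleoporins, 4 importins and 3 exportins, and below for 1 (17.7% of all genes). The log2 fold change was above 0 for 19 of 20 nucleoporins, 14 of 16 importins and 3 of 6 exportins, beside 53.3% of all genes. The medians were 0.51 for nucleoporins, 0.35 for importins and 0.25 for exportins, beside 0.08 for all genes. All 18 genes that passed the test in subcutaneous adipose had a fold change of the same sign in gonadal adipose. The comparisons of the 2 depots share the blood libraries, so these are not separate observations.

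**Figure D2:**
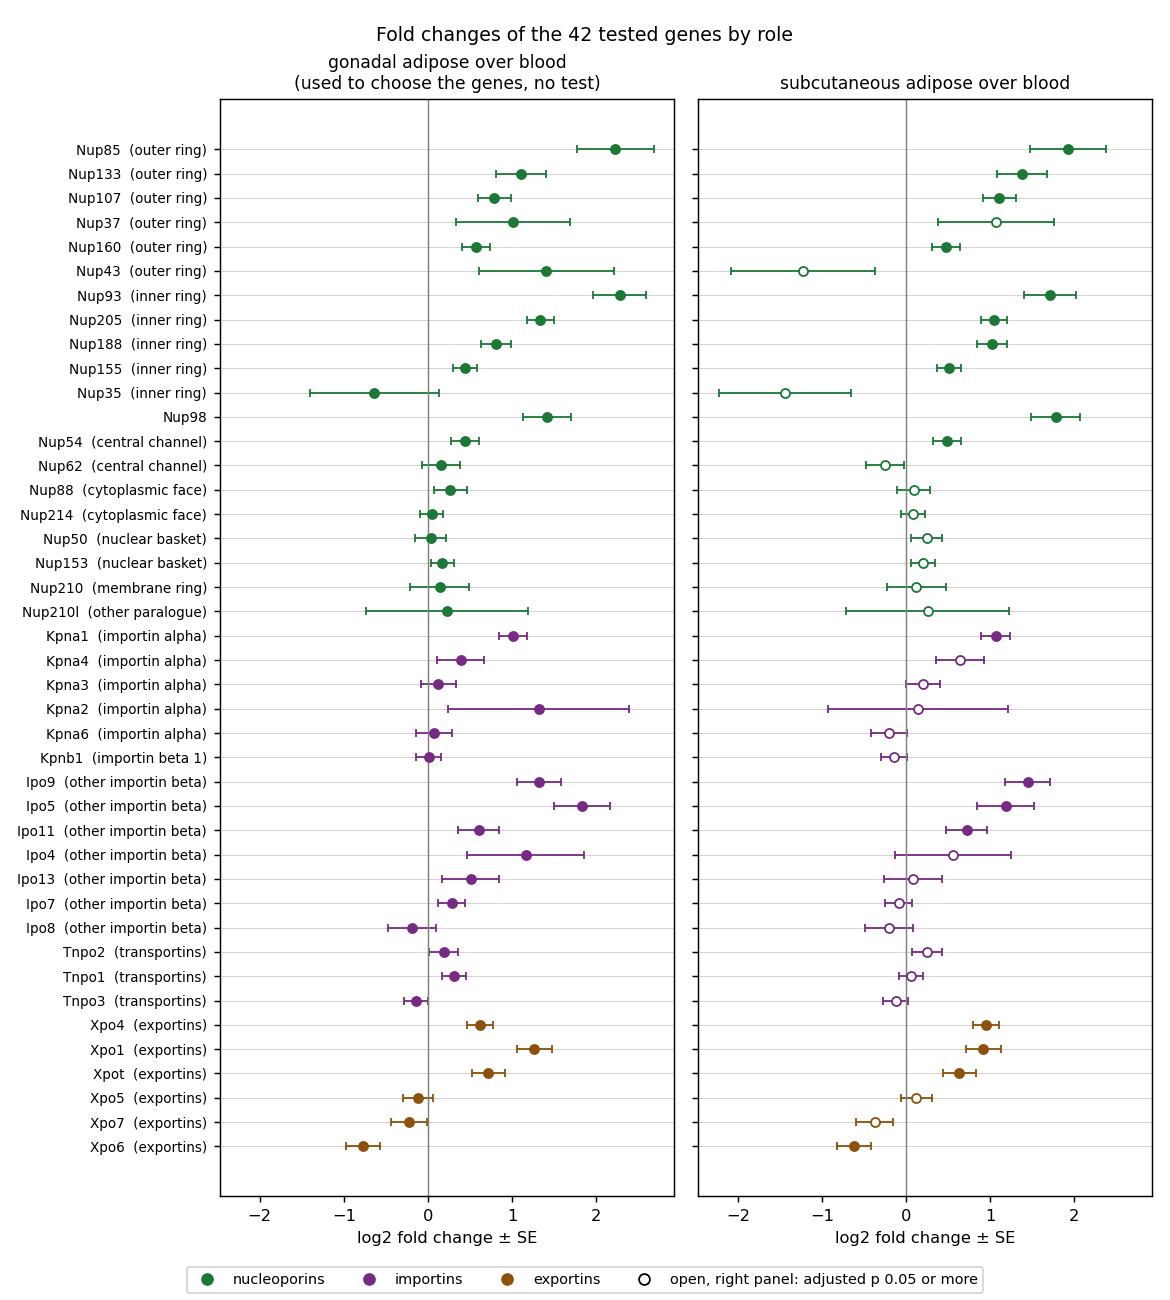
Log2 fold change ± SE (horizontal axes) of the 42 tested genes, by role, for gonadal adipose over blood (left) and subcutaneous adipose over blood (right). Of the outer and inner ring genes Nup85 and Nup93 stand farthest to the right of 0, while Nup35 stands to its left in both panels and Nup43 in the right one, with channel, face, basket and membrane ring genes near 0, and the exportin Xpo6 to the left. Filled points of the right panel had an adjusted p under 0.05, and the left panel has no test.

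Of the nucleoporins taken by the symbol rule, most that rose belong to the scaffold rings. Of 11 outer and inner ring genes 8 rose in subcutaneous adipose, beside 15.4% of all genes. Only Nup93, Nup188 and Nup205 of these passed under all 21 alternatives listed at the end. Nup107, Nup133, Nup155 and Nup160 did not pass with an offset for effective transcript length, nor Nup85 on protein-coding transcripts alone. The median log2 fold change of the 11 ring genes was 1.04 in subcutaneous adipose and 1.01 in gonadal adipose. Of the 7 genes of the central channel, cytoplasmic face, basket and membrane ring 1 rose, a share near that of all genes, with medians of 0.12 and 0.16. The 11 ring genes together held 228 ± 23.6 CPM in gonadal adipose, 223 ± 11.3 CPM in subcutaneous adipose and 118 ± 10.2 CPM in blood (± SD, n = 4). The other 7 held 443 ± 60.4 CPM in gonadal adipose, 440.1 ± 105 CPM in subcutaneous adipose and 399.9 ± 29.3 CPM in blood (± SD, n = 4), and their libraries overlapped. The difference between these groups of genes was not tested. Nup98, a channel protein that rose, is counted in neither group. Pore genes outside the symbol rule are not counted either, and they went otherwise. Seh1l, Sec13 and Ahctf1 of the outer ring had 0.26, 0.13 and -0.17 in subcutaneous adipose and did not pass. Ranbp2 of the cytoplasmic filaments and the membrane anchor Ndc1 rose, with 0.62 and 1.40.

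The outer ring, or Y complex, forms the pore's rims and is recruited to chromatin as nuclei re-form. Nup85 (ENSMUSG00000020739.11, chromosome 11, 115564434 to 115583985, plus strand), a subunit of its short arm, had 19.6, 11.8, 18.5 and 13.95 CPM in gonadal adipose, 15.6, 6.73, 13.8 and 15.9 CPM in subcutaneous adipose and 4.87, 2.96, 0.943 and 4.86 CPM in blood. All adipose libraries lay above all blood libraries, and the log2 fold change of subcutaneous adipose over blood was 1.92 (SE 0.454, edgeR adjusted p = 0.00872). On its protein-coding transcripts alone the fold change was 1.54, with an edgeR adjusted p of 0.0594. Nup133 (ENSMUSG00000039509.8, chromosome 8, 123897123 to 123949265, minus strand), at the tip of the stem, had 16.6, 8.65, 19.4 and 19.9 CPM in gonadal adipose, 24.3, 15.8, 19.9 and 18.5 CPM in subcutaneous adipose and 10.9, 7.09, 6.23 and 5.805 CPM in blood. Subcutaneous adipose did not overlap blood, with a log2 fold change of 1.38 (SE 0.2997, edgeR adjusted p = 0.00576), whereas the gonadal library of mouse 2807 lay below the highest blood library. Its edgeR adjusted p was 0.0510 with an offset for effective transcript length.

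Nup107 (ENSMUSG00000052798.13, chromosome 10, 117750621 to 117792705, minus strand), which binds Nup133 in that stem, had 24.9, 17.1, 22.6 and 25.9 CPM in gonadal adipose, 22.8, 35.97, 24.5 and 29.1 CPM in subcutaneous adipose and 12.997, 13.6, 11.6 and 14.04 CPM in blood. Every adipose library exceeded every blood library, and the log2 fold change was 1.11 (SE 0.198, edgeR adjusted p = 0.00187), but the edgeR adjusted p was 0.414 on protein-coding transcripts alone and 0.0598 with the length offset. Nup160 (ENSMUSG00000051329.13, chromosome 2, 90677215 to 90736328, plus strand), the long-arm subunit, had 29.7, 20.03, 26.3 and 29.4 CPM in gonadal adipose, 24.9, 24.6, 24.2 and 24.6 CPM in subcutaneous adipose and 20.1, 16.2, 17.2 and 17.2 CPM in blood. Its subcutaneous libraries lay within a narrow range above blood. The log2 fold change was 0.47 (SE 0.165, edgeR adjusted p = 0.0495), close to the threshold. With the effective length offset the log2 fold change was 0.27 and the edgeR adjusted p 0.532. The edgeR adjusted p was 0.156 with the animal as a block and 0.0597 to 0.133 with any 1 of 11 libraries left out, all but gonadal 2807.

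Nup37 and Nup43, peripheral subunits of the Y complex, were barely detected. Nup37 had 0.611 to 2.12 CPM in gonadal adipose, 1.198 to 1.47 CPM in subcutaneous adipose and 0.314 to 1.03 CPM in blood, with a log2 fold change of subcutaneous adipose over blood of 1.07 (SE 0.687, edgeR adjusted p = 0.268). Nup43 had 0.747, 1.66, 2.43 and 1.04 CPM in gonadal adipose, 0, 0.158, 0.434 and 0.221 CPM in subcutaneous adipose and 0.593, 0.517, 0.8905 and 0.198 CPM in blood, and -1.23 (SE 0.854, edgeR adjusted p = 0.307).

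Inner ring nucleoporins join the pore's 2 rims and hold the channel proteins in place. Nup93 (ENSMUSG00000032939.14, chromosome 8, 94214564 to 94317227, plus strand), the linker of this ring, had 16.4, 13.3, 24.7 and 14.7 CPM in gonadal adipose, 11.4, 9.98, 12.5 and 12.8 CPM in subcutaneous adipose and 5.58, 3.15, 3.195 and 2.28 CPM in blood. No adipose library reached down to blood. Its log2 fold change was 1.72 (SE 0.3099, edgeR adjusted p = 0.00198) in subcutaneous adipose and 2.28 in gonadal adipose, a 4.86-fold difference that was the largest of the 42 genes there. Nup205 (ENSMUSG00000038759.15, chromosome 6, 35177421 to 35247596, plus strand), one of the large inner ring scaffold proteins, had 49.001, 47.7, 49.2 and 59.4 CPM in gonadal adipose, 36.5, 38.7, 39.2 and 53.1 CPM in subcutaneous adipose and 19.9, 19.5, 18.8 and 23.2 CPM in blood. Blood and adipose libraries were well apart, and the log2 fold change was 1.04 (SE 0.159, edgeR adjusted p = 0.000674) in subcutaneous adipose and 1.33 in gonadal adipose.

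Nup188 (ENSMUSG00000052533.14, chromosome 2, 30286397 to 30344266, plus strand), a relative of Nup205 in the same ring, had 42.9, 36.96, 39.8 and 43.3 CPM in gonadal adipose, 59.9, 37.8, 46.7 and 44.1 CPM in subcutaneous adipose and 26.6, 21.8, 18.2 and 26.2 CPM in blood. It too was higher in each adipose library than in any blood library, with a log2 fold change of 1.02 (SE 0.177, edgeR adjusted p = 0.001603). Nup155 (ENSMUSG00000022142.8, chromosome 15, 8109273 to 8161247, plus strand), which touches the membrane, had 31.7, 31.8, 34.6 and 33.6 CPM in gonadal adipose, 33.8, 34.2, 40.9 and 29.4 CPM in subcutaneous adipose and 24.2, 22.5, 25.2 and 25.1 CPM in blood, and a log2 fold change of 0.51 (SE 0.142, edgeR adjusted p = 0.0188). Adipose and blood did not overlap, but with the effective length offset the log2 fold change was 0.28 and the edgeR adjusted p 0.513. The edgeR adjusted p was 0.06303 with the animal as a block and 0.0527 to 0.0678 with blood 2771, blood 2668 or subcutaneous 2771 left out. Nup35, the membrane-bending member of the ring, stayed under 5 CPM with -1.44 (SE 0.786, edgeR adjusted p = 0.1898), and was the 1 nucleoporin with a fold change below 0 in gonadal adipose.

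**Figure D3:**
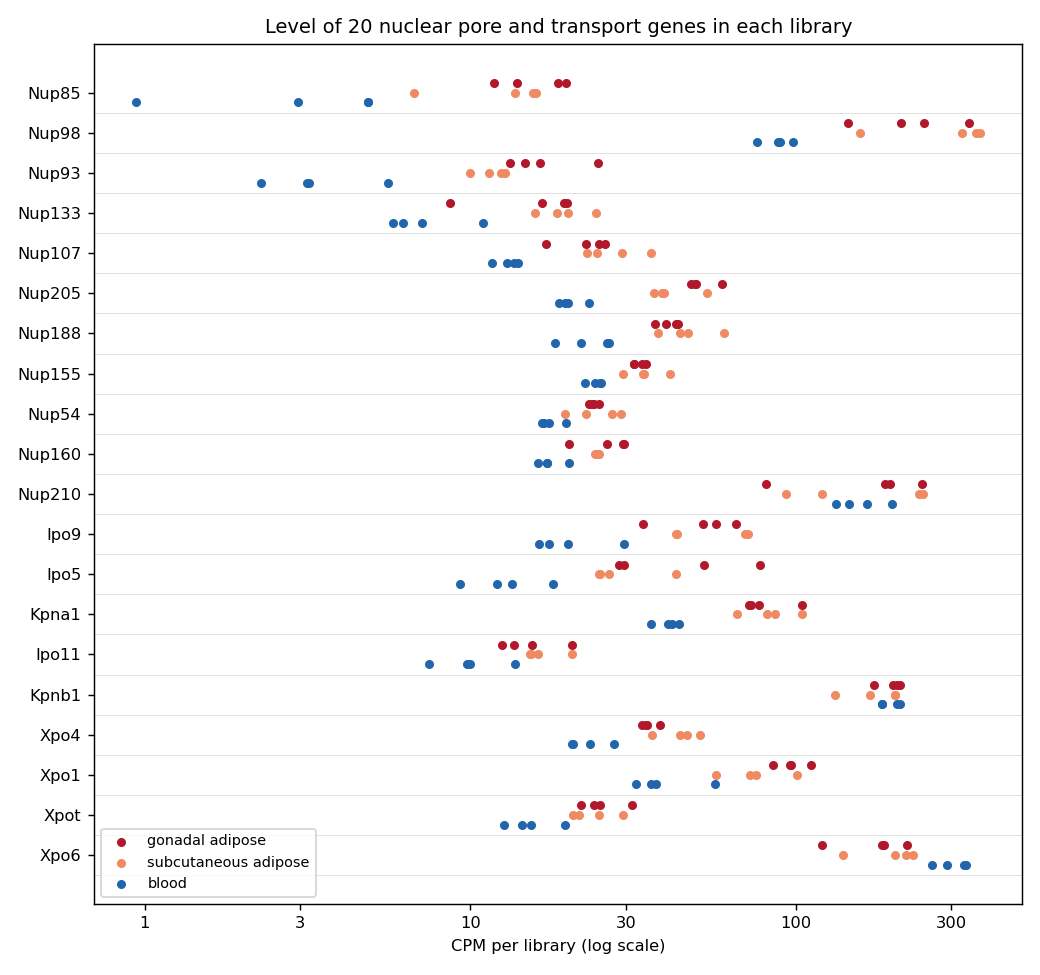
CPM (logarithmic axis) in each of the 12 libraries for the 18 genes that passed the test and for Nup210 and Kpnb1, 2 of the most abundant ones. Nup98 shows adipose libraries from 144 to 368 CPM to the right of blood at 75.8 to 98.1 CPM, Xpo6 shows the reverse, and Nup210 and Kpnb1 overlap.

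Nup98 (ENSMUSG00000063550.8, chromosome 7, 102119398 to 102210176, minus strand) encodes a channel protein of the pore's barrier, made alone or joined to the outer ring protein Nup96, from which it is then cut. Nup98 had 209, 246, 144 and 340.3 CPM in gonadal adipose, 157, 356, 323 and 368 CPM in subcutaneous adipose and 98.1, 89.5, 87.8 and 75.8 CPM in blood. All adipose libraries lay above blood, and the log2 fold change was 1.78 (SE 0.288, edgeR adjusted p = 0.00103) in subcutaneous adipose and 1.42 in gonadal adipose. The 2 lowest adipose libraries, those of mouse 2683 in gonadal and of mouse 2846 in subcutaneous adipose, were also those with the lowest eosinophil marker sums of their depots, at 3327 and 3019 CPM. These libraries were also the lowest of their depots for Xpo4, Xpo6, Xpo7, Kpna4, Kpnb1, Ipo8, Nup214 and Nup210. Nup98 carried 19.4% to 31.6% of the summed nucleoporin level in gonadal adipose, 22.2% to 34.4% in subcutaneous adipose and 12.1% to 15.7% in blood. Without it the other 19 nucleoporins still summed to 599 to 737 CPM in gonadal adipose, 549.8 to 749 CPM in subcutaneous adipose and 472 to 553 CPM in blood, where the subcutaneous library of mouse 2846 lay within the blood range.

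Much of the added Nup98 RNA was assigned to transcripts that keep an intron and are annotated as retained_intron, not protein_coding. The share of Nup98 reads on protein-coding transcripts was 58.3% to 75.8% in gonadal adipose, 39.5% to 65.4% in subcutaneous adipose and 89.2% to 93.2% in blood. Libraries of both depots lay below blood without overlap, and of 35 genes of the set with at least 20 reads in every library Nup98 was the 1 with that pattern. How many of all genes show it was not counted. The reads of all protein-coding genes fell on protein-coding transcripts at 79.7% to 83.7% in gonadal adipose, 78.0% to 80.8% in subcutaneous adipose and 81.4% to 84.0% in blood. In that pooled share too every subcutaneous library lay below every blood library, while gonadal libraries overlapped blood. Retained-intron transcripts of Nup98 averaged 90.9 ± 44.4 CPM in gonadal adipose, 135 ± 37.5 CPM in subcutaneous adipose and 7.53 ± 2.21 CPM in blood (± SD, n = 4), which is 12.1 times the blood mean in gonadal and 17.9 times in subcutaneous adipose. They were Nup98-202 (chromosome 7, 102178282 to 102195004, 8 exons) and Nup98-207 (102192349 to 102210145, 4 exons).

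Protein-coding transcripts of Nup98 differed less. They averaged 144 ± 38.9 CPM in gonadal adipose, 166 ± 70.5 CPM in subcutaneous adipose and 80.3 ± 7.56 CPM in blood (± SD, n = 4), and the subcutaneous library of mouse 2846, at 61.9 CPM, lay below all blood libraries. In a fit on protein-coding transcripts alone the log2 fold change of Nup98 in subcutaneous adipose was 1.11 (SE 0.313, edgeR adjusted p = 0.0248), and it was 0.84 in gonadal adipose. The transcript Nup98-203, with 33 exons the one with most, held a mean of 32.9% of Nup98 reads in gonadal adipose, 24.4% in subcutaneous adipose and 64.9% in blood. Salmon divides reads between overlapping transcripts by a model, and the part of that step in these values was not tested.

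**Figure D4:**
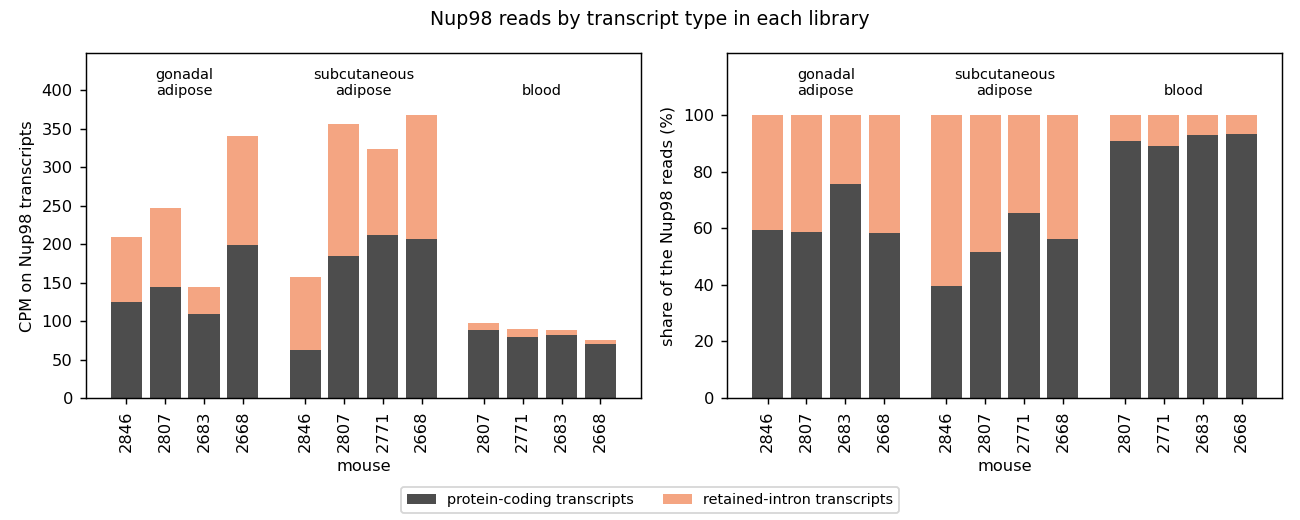
Nup98 in the 12 libraries, labelled by mouse, as CPM (left) and as percent of Nup98 reads (right), split into protein-coding and retained-intron transcripts. Retained-intron transcripts take 24.2% to 41.7% of reads in gonadal adipose, 34.6% to 60.5% in subcutaneous adipose and 6.83% to 10.8% in blood.

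Apart from Nup98, the nucleoporins of the channel and of the pore's faces that the symbol rule took were close to their level in blood. The 1 of 7 that rose is a share near the 15.4% of all genes. Nup54 (ENSMUSG00000034826.14, chromosome 5, 92415540 to 92435219, minus strand), a partner of Nup62 in the channel, was the 1 of 7 to rise, with 23.2, 23.99, 24.9 and 23.6 CPM in gonadal adipose, 19.5, 28.998, 27.3 and 22.7 CPM in subcutaneous adipose and 19.7, 16.8, 16.6 and 17.5 CPM in blood. Its log2 fold change was 0.48 (SE 0.165, edgeR adjusted p = 0.0454), its lowest subcutaneous library lay just under the highest blood library, and with the effective length offset the log2 fold change was 0.22, with an edgeR adjusted p of 0.713. The edgeR adjusted p was 0.0876 with the animal as a block and 0.0637 to 0.125 with any 1 of 10 libraries left out, all but subcutaneous 2846 and 2668. Nup62, the channel's founding member, averaged 17.9 ± 5.25 CPM in gonadal adipose, 13.4 ± 1.49 CPM in subcutaneous adipose and 16.03 ± 1.15 CPM in blood (± SD, n = 4). Nup214 and Nup88, which anchor the cytoplasmic filaments, had log2 fold changes of 0.08 (SE 0.141, edgeR adjusted p = 0.699) and 0.09 (SE 0.194, edgeR adjusted p = 0.773). The basket genes Nup153 and Nup50 had 0.20 (SE 0.141, edgeR adjusted p = 0.303) and 0.24 (SE 0.185, edgeR adjusted p = 0.352).

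Nup210 (ENSMUSG00000030091.17, chromosome 6, 91013068 to 91116829, minus strand), a transmembrane protein of the luminal ring, had 187, 195, 80.9 and 243 CPM in gonadal adipose, 93.1, 245, 119.98 and 238 CPM in subcutaneous adipose and 165, 145, 133 and 197 CPM in blood. The groups overlapped throughout, with a log2 fold change of 0.12 (SE 0.352, edgeR adjusted p = 0.826), and within adipose the libraries differed more than 2-fold. The paralogue Nup210l stayed under 4 CPM.

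Importins rose in part. Importin alpha proteins read the classical nuclear localization signal and bind the carrier importin beta 1, encoded by Kpnb1. Of 5 tested importin alpha genes Kpna1 rose, which is 20% and near the 15.4% of all genes that rose. Kpna1 (ENSMUSG00000022905.12, chromosome 16, 35978750 to 36037131, plus strand) had 77.2, 72.5, 71.9 and 105 CPM in gonadal adipose, 81.5, 86.4, 65.8 and 104 CPM in subcutaneous adipose and 41.7, 40.4, 43.6 and 35.9 CPM in blood. All adipose libraries lay above blood, with log2 fold changes of 1.06 (SE 0.1701, edgeR adjusted p = 0.000956) in subcutaneous adipose and 1.01 in gonadal adipose. Kpna4, another importin alpha, averaged 190.5 ± 44.7 CPM in gonadal adipose, 226 ± 90.9 CPM in subcutaneous adipose and 145 ± 12.5 CPM in blood (± SD, n = 4) with 0.64 (SE 0.281, edgeR adjusted p = 0.107), and its libraries overlapped. Kpna3 and Kpna6 had 0.20 and -0.20, and Kpna2, often high in dividing cells, had 0 to 13.5 CPM. Kpnb1 (ENSMUSG00000001440.5, chromosome 11, 97159714 to 97187881, minus strand) had 198, 208, 173 and 204 CPM in gonadal adipose, 132, 202, 168 and 202 CPM in subcutaneous adipose and 184, 205, 209 and 183 CPM in blood. It overlapped between all groups, with a log2 fold change of -0.15 (SE 0.152, edgeR adjusted p = 0.501).

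Other members of the importin beta family carry cargo without importin alpha, and 3 of 7 rose, beside 15.4% of all genes. Ipo9 (ENSMUSG00000041879.13, chromosome 1, 135382312 to 135430499, minus strand), a carrier of histones H2A and H2B, had 56.7, 51.9, 65.2 and 33.9 CPM in gonadal adipose, 69.5, 43.1, 71.4 and 42.9 CPM in subcutaneous adipose and 29.7, 19.96, 17.4 and 16.2 CPM in blood. All adipose libraries lay above blood and the log2 fold change was 1.44 (SE 0.266, edgeR adjusted p = 0.00224). Ipo5 (ENSMUSG00000030662.10, chromosome 14, 120911224 to 120947999, plus strand), which imports ribosomal proteins among others, had 52.1, 28.5, 77.6 and 29.6 CPM in gonadal adipose, 24.9, 24.96, 42.9 and 26.7 CPM in subcutaneous adipose and 17.98, 12.1, 9.27 and 13.4 CPM in blood. Adipose libraries lay above blood, with 1.18 (SE 0.334, edgeR adjusted p = 0.0207) in subcutaneous and 1.83 in gonadal adipose. Its highest adipose libraries, of mouse 2683 in gonadal and mouse 2771 in subcutaneous adipose, also had the highest sums of dividing-cell markers (199 and 153 CPM) and of macrophage markers (2311 and 3017 CPM) of their depots. That order is not particular to Ipo5. The same libraries were the highest of their depots for Ipo4, Ipo9, Ipo11, Kpna2, Xpot, Nup43 and Nup155.

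For Ipo5 the edgeR adjusted p was 0.0596 with the animal as a block, 0.0526 to 0.0665 with blood 2771, blood 2683, blood 2668 or subcutaneous 2771 left out, and 0.533 on protein-coding transcripts alone, where the log2 fold change was 0.51. Ipo11 (ENSMUSG00000042590.16, chromosome 13, 106794439 to 106936958, minus strand), an importer of ubiquitin-conjugating enzymes, had 13.6, 12.5, 20.5 and 15.4 CPM in gonadal adipose, 15.3, 15.4, 20.6 and 16.2 CPM in subcutaneous adipose and 13.7, 10.003, 9.795 and 7.44 CPM in blood. Subcutaneous adipose lay just above blood and gonadal adipose overlapped it, and the log2 fold change was 0.72 (SE 0.242, edgeR adjusted p = 0.0427). Its edgeR adjusted p was 0.0712 with the animal as a block and 0.0535 to 0.132 with any 1 of 9 libraries left out, all but blood 2807, gonadal 2683 and subcutaneous 2846, and 0.168 with the effective length offset.

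Ipo4, Ipo7, Ipo8 and Ipo13 did not pass the test in subcutaneous adipose, with log2 fold changes of 0.56, -0.09, -0.21 and 0.08. None of the 3 transportins did, with 0.06 for Tnpo1, the carrier of many RNA-binding proteins, 0.25 for Tnpo2, and -0.12 for Tnpo3, which imports splicing factors. Tnpo1 was the 1 transportin whose gonadal libraries, at 168 to 192 CPM, all lay above blood, at 123 to 156 CPM.

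Exportins split. Xpo1 (ENSMUSG00000020290.14, chromosome 11, 23256041 to 23298249, plus strand), also called CRM1, exports proteins with leucine-rich signals and several kinds of RNA. It had 96.03, 84.9, 96.4 and 111 CPM in gonadal adipose, 56.6, 72.02, 75.4 and 101 CPM in subcutaneous adipose and 56.4, 32.2, 35.8 and 37.2 CPM in blood. The lowest subcutaneous library stood just above the highest blood library, and the log2 fold change was 0.92 (SE 0.206, edgeR adjusted p = 0.00681) in subcutaneous and 1.27 in gonadal adipose. Xpo4 (ENSMUSG00000021952.16, chromosome 14, 57577521 to 57665430, minus strand), which exports the translation factor eIF5A, had 34.8, 34.6, 33.7 and 38.3 CPM in gonadal adipose, 36.2, 50.8, 43.9 and 46.1 CPM in subcutaneous adipose and 27.6, 20.7, 20.6 and 23.3 CPM in blood. All adipose libraries lay above blood, with 0.95 (SE 0.155, edgeR adjusted p = 0.00111). Xpot (ENSMUSG00000034667.8, chromosome 10, 121587380 to 121626332, minus strand), the exporter of transfer RNAs, had 23.9, 25, 31.4 and 21.8 CPM in gonadal adipose, 24.9, 20.6, 29.4 and 21.5 CPM in subcutaneous adipose and 14.4, 19.6, 12.7 and 15.4 CPM in blood. Adipose and blood did not overlap, with 0.63 (SE 0.198, edgeR adjusted p = 0.0322), and its edgeR adjusted p was 0.0579 with the animal as a block and 0.0524 to 0.101 with blood 2807, blood 2683, blood 2668, gonadal 2846 or subcutaneous 2771 left out, and 0.2703 with the effective length offset.

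Xpo6 (ENSMUSG00000000131.15, chromosome 7, 126101715 to 126200501, minus strand), which exports actin bound to profilin, went the other way. It had 186, 183, 121 and 219 CPM in gonadal adipose, 139, 228, 201 and 217 CPM in subcutaneous adipose and 260.5, 333, 328 and 291 CPM in blood. Every adipose library lay below every blood library, and the log2 fold change was -0.62 (SE 0.202, edgeR adjusted p = 0.03698) in subcutaneous and -0.77 in gonadal adipose. The edgeR adjusted p was 0.0779 with the animal as a block and 0.0509 to 0.09901 with blood 2771, blood 2683, blood 2668, gonadal 2846, subcutaneous 2846, subcutaneous 2771 or subcutaneous 2668 left out. Within each depot its lowest library was the one with the lowest eosinophil marker sum, as for the other genes listed with Nup98. Reads on its protein-coding transcripts were the smaller part in all groups, at 14.4% to 40.3% in gonadal adipose, 14.6% to 32.6% in subcutaneous adipose and 25.3% to 33.9% in blood, and on them alone the log2 fold change was -0.89 (SE 0.273, edgeR adjusted p = 0.0341).

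Xpo6 alone held 33.6% to 46.2% of the summed exportin level in gonadal adipose, 43.9% to 48.9% in subcutaneous adipose and 56.5% to 67.7% in blood. The other 5 exportins summed to 243 ± 10.1 CPM in gonadal adipose, 231 ± 39.3 CPM in subcutaneous adipose and 175 ± 18.6 CPM in blood (± SD, n = 4). All gonadal libraries lay above blood in that sum, while the subcutaneous library of mouse 2846, at 173 CPM, lay within the blood range of 157 to 201 CPM. Xpo5, the exporter of microRNA precursors, had a log2 fold change of 0.12 (SE 0.184, edgeR adjusted p = 0.661) and Xpo7, an exporter and importer of many proteins, -0.38 (SE 0.215, edgeR adjusted p = 0.211).

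No difference between the depots was resolved in this set with 4 libraries a group, which does not show equal levels. Of the 42 genes none passed the edgeR test for gonadal against subcutaneous adipose, as none did with DESeq2, and 2 had an unadjusted p under 0.05. Over all genes 1 passed (0.00651%), and 1234 had an unadjusted p under 0.05. Medians of the log2 fold change were -0.03 for nucleoporins, 0.09 for importins and -0.03 for exportins, beside -0.01 for all genes, and 21 of the 42 genes were above 0, beside 48.6% of all genes. Within the importins the median was 0.37 for the 7 other importin beta genes, of which 5 were above 0. It was -0.05 for importin alpha and -0.02 for transportins. Ipo5 was the largest of the 7, with 0.65 (SE 0.329, edgeR adjusted p = 0.659, unadjusted 0.0697). In 3 genes all gonadal libraries lay above all subcutaneous ones (1.94% of all genes), and in none did they lie below (1.69%).

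Those 3 genes were Nup93, Tnpo1 and Nup43. Nup93 had 13.3 to 24.7 CPM in gonadal and 9.98 to 12.8 CPM in subcutaneous adipose, a log2 fold change of 0.56 (SE 0.29997, edgeR adjusted p = 0.678, unadjusted 0.0824). Tnpo1 had 168.4 to 192 CPM in gonadal and 114 to 168.2 CPM in subcutaneous adipose, and 0.26 (SE 0.144, edgeR adjusted p = 0.693, unadjusted 0.0959). Nup43, at 0.747 to 2.43 CPM in gonadal and 0 to 0.434 CPM in subcutaneous adipose, had 2.64 (SE 0.875, edgeR adjusted p = 0.476, unadjusted 0.00994). It passed the filter on low counts only through its gonadal libraries, where it is high. Its p and its place among the 3 genes therefore carry no weight. The other gene with an unadjusted p under 0.05 was Ipo7, an importin of ribosomal proteins, with 0.37 (SE 0.159, edgeR adjusted p = 0.587, unadjusted 0.0373). The largest fold changes in the opposite direction were those of Nup98 and Xpo4, with -0.36 (SE 0.2795, edgeR adjusted p = 0.794, unadjusted 0.223) and -0.33 (SE 0.153, edgeR adjusted p = 0.623, unadjusted 0.0522).

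Levels between genes were compared per length, as TPM, which scales reads by transcript length and library size. Averaged over the 12 libraries Kpnb1 was the most abundant, at 29.9 ± 6.52 TPM in gonadal adipose, 25.9 ± 9.41 TPM in subcutaneous adipose and 28.3 ± 7.05 TPM in blood (± SD, n = 4). Xpo6 stood at 23.8 ± 8.04 TPM in gonadal adipose, 20.4 ± 5.57 TPM in subcutaneous adipose and 35.9 ± 8.35 TPM in blood. Nup98 stood at 22.3 ± 11.2 TPM in gonadal adipose, 28.3 ± 13.9 TPM in subcutaneous adipose and 5.88 ± 1.75 TPM in blood, which placed it 3rd of the 44 genes in gonadal adipose, 1st in subcutaneous adipose and 13th in blood. Nup210 stood at 19.6 ± 9.56 TPM in gonadal adipose, 20.9 ± 11.99 TPM in subcutaneous adipose and 15.6 ± 6.77 TPM in blood and Kpna1 at 18.6 ± 4.89 TPM in gonadal adipose, 25.7 ± 12.1 TPM in subcutaneous adipose and 9.77 ± 4.73 TPM in blood. Neighbours in this order lay within 1 SD of each other in most cases, as Kpnb1 and Xpo6 did in gonadal adipose and Kpnb1 and Nup98 did in subcutaneous adipose. At the low end 5 genes stayed under 1 TPM in every group, namely Kpna7, Nup62cl, Nup210l, Nup43 and Nup37.

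Genes that work with pore and carriers were taken from 4 lists, of which 57 of 59 genes were tested. Of 10 genes of the Ran cycle and its carriers 4 rose in subcutaneous adipose and none fell, beside 15.4% of all genes that rose and 11.4% that fell, and the median log2 fold change was 0.59, beside 0.07 for all genes. Cse1l, the exportin that returns importin alpha to the cytoplasm, had 41.5, 29.9, 37.7 and 27.1 CPM in gonadal adipose, 21.6, 23.3, 22.2 and 34.4 CPM in subcutaneous adipose and 15.96, 8.59, 9.85 and 8.48 CPM in blood. Adipose stood above blood throughout, with 1.25 (SE 0.252, edgeR adjusted p = 0.00388). Rangap1, which turns on GTP hydrolysis by Ran, averaged 39.7 ± 7.85 CPM in gonadal adipose, 34.7 ± 8.55 CPM in subcutaneous adipose and 16.7 ± 3.45 CPM in blood (± SD, n = 4) with 1.05 (SE 0.224, edgeR adjusted p = 0.00502). Ranbp1, its helper, had 1.05 (SE 0.278, edgeR adjusted p = 0.0154), Ran itself had 0.74 (SE 0.2305, edgeR adjusted p = 0.0311), and Rcc1, the exchange factor that loads Ran with GTP, had 0.03 (SE 0.431, edgeR adjusted p = 0.9697). Ran passed under 13 of 21 alternatives, with an edgeR adjusted p of up to 0.141, and did not with the effective length offset or with blood 2771, blood 2683, blood 2668, gonadal 2846, subcutaneous 2807, subcutaneous 2771 or subcutaneous 2668 left out. Ranbp1 did not pass with blood 2771 or blood 2668 left out, with an edgeR adjusted p of up to 0.0522. For gonadal over subcutaneous adipose the median of the 10 genes was 0.44, beside -0.01 for all genes. There 8 of the 10 were above 0, beside 48.6% of all genes, and none passed.

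Of 11 other pore genes 2 rose, a share near the 15.4% of all genes. Ranbp2, the main protein of the cytoplasmic filaments, averaged 257 ± 24.1 CPM in gonadal adipose, 298 ± 64.4 CPM in subcutaneous adipose and 193 ± 22.3 CPM in blood (± SD, n = 4) with 0.62 (SE 0.175, edgeR adjusted p = 0.0198), and its groups overlapped. It did not pass with blood 2683, blood 2668, subcutaneous 2807 or subcutaneous 2771 left out, with an edgeR adjusted p of up to 0.0788. Ndc1, a transmembrane anchor of the pore, averaged 8.51 ± 1.03 CPM in gonadal adipose, 5.35 ± 1.88 CPM in subcutaneous adipose and 1.99 ± 0.613 CPM in blood (± SD, n = 4) with 1.40 (SE 0.356, edgeR adjusted p = 0.0127), and an edgeR adjusted p of 0.0611 with the animal as a block and 0.575 on protein-coding transcripts alone. Tpr and Ahctf1, a basket protein and the chromatin anchor of the outer ring, had -0.15 and -0.17 and did not pass.

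Among 19 genes of messenger RNA export 3 rose and none fell, with a median of 0.12. That share is near the 15.4% of all genes that rose. They were Thoc1, of the THO complex, with 0.84 (SE 0.152, edgeR adjusted p = 0.00193), Alyref, the adaptor that hands RNA to the export receptor, with 1.10 (SE 0.296, edgeR adjusted p = 0.01703), and Nxt2, with 1.06 (SE 0.3602, edgeR adjusted p = 0.0458) and an edgeR adjusted p of 0.0826 with the animal as a block. Nxt2 passed under 9 of 21 alternatives, with an edgeR adjusted p of up to 0.193, and did not when any 1 of blood 2771, blood 2683, blood 2668, gonadal 2846, gonadal 2807, subcutaneous 2846, subcutaneous 2807 or subcutaneous 2771 was left out. On protein-coding transcripts alone the edgeR adjusted p was 0.259 for Thoc1 and 0.175 for Alyref, and Alyref did not pass with blood 2771 or blood 2668 left out either. The receptor Nxf1 itself had 0.40 (SE 0.163, edgeR adjusted p = 0.0872).

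Of 17 genes of the nuclear lamina and envelope 1 rose and 5 fell, beside 15.4% and 11.4% of all genes, with a median of -0.50. Emd, which encodes emerin of the inner nuclear membrane, had 108, 75, 44.5 and 157 CPM in gonadal adipose, 38.3, 94.2, 70.6 and 171 CPM in subcutaneous adipose and 8.66, 7.23, 10.3 and 8.09 CPM in blood. Adipose libraries were all above blood, with 3.45 (SE 0.471, edgeR adjusted p = 0.000434). Tmpo, the gene of the lamina-associated LAP2 proteins, had 81.2, 70.9, 57.2 and 62.4 CPM in gonadal adipose, 102, 99.6, 95.5 and 73.8 CPM in subcutaneous adipose and 293, 299, 310.1 and 276 CPM in blood. Here all adipose libraries lay below blood, with -1.67 (SE 0.151, edgeR adjusted p = 1.52e-05). Sun2, which couples the nucleus to the cytoskeleton, averaged 291 ± 63.5 CPM in gonadal adipose, 331 ± 107 CPM in subcutaneous adipose and 860.3 ± 74.1 CPM in blood (± SD, n = 4) with -1.38 (SE 0.241, edgeR adjusted p = 0.00165), and its relative Sun1 had -0.91 (SE 0.2099, edgeR adjusted p = 0.007905). Ankle2 also fell, with -0.73 (SE 0.176, edgeR adjusted p = 0.00991), and so did Tor1a, with -0.70 (SE 0.216, edgeR adjusted p = 0.0301), which had an edgeR adjusted p of 0.0760 with the animal as a block. Tor1a passed under 12 of 21 alternatives, with an edgeR adjusted p of up to 0.345, and did not with blood 2807, blood 2771, blood 2683, subcutaneous 2846 or subcutaneous 2668 left out. The receptor for lamin B, Lbr, known for the lobed nuclei of granulocytes, had -0.50 (SE 0.325, edgeR adjusted p = 0.276). Lamin genes Lmna and Lmnb1 had 0.44 and -0.10 and did not pass.

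**Figure D5:**
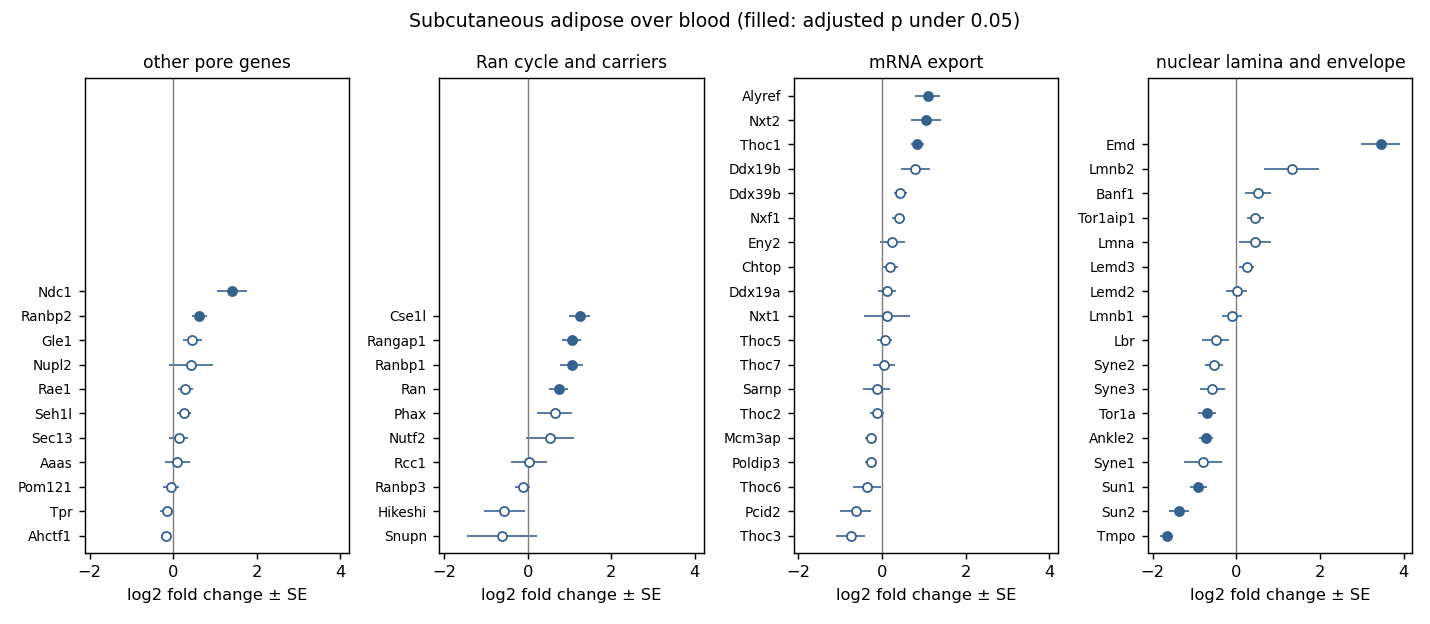
Log2 fold change ± SE of subcutaneous adipose over blood (horizontal axes) for the 57 tested genes of the 4 lists. Filled points had an adjusted p under 0.05. Cse1l, Rangap1, Ranbp1 and Ran stand to the right of 0, and Tmpo, Sun2, Sun1, Ankle2 and Tor1a to the left, with Emd far to the right at 3.45.

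For 15 of the 44 genes another annotated gene with at least 100 reads overlaps the locus. The sources used here do not say whether quantification used strand, so a gene and its antisense partner may share reads. Among the genes that passed the test this concerns Nup133 and the antisense gene Gm20388 (2609 and 1743 reads over all libraries) and Kpna1 and the antisense gene Gm15564 (12649 and 586). Nup188 and Gm28038 (6688 and 181) and Nup93 and Gm45804 (2101 and 207) overlap on the same strand, where use of strand would not separate them.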

How the data were processed

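Eosinophil RNA of 12 libraries from 5 mice was measured with a stranded total RNA kit for very small inputs, per the labels' protocols. The submitters' processing notes name the mm10 build and the tools Salmon 1.6.0, Trim Galore 0.6.4 and DESeq2 1.30.1. Per the file headers, each deposited table gives estimated counts, TPM and effective lengths of 140992 transcripts. Which annotation release they used is not given in these sources.

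GENCODE M21 on GRCm38, the assembly of mm10, gave each transcript its gene, and 1201 unmatched transcripts (0.351% to 0.538% of reads) were left out. The authors' estimated counts were summed per gene and rounded, and the deposited TPM values were summed per gene. Effective lengths entered 1 alternative. edgeR 4.0.16 in R 4.3.3 (TMM, filterByExpr by group, robust quasi-likelihood fit of the group over all 12 libraries) tested 15367 genes, with Benjamini-Hochberg adjustment over all of them and a threshold of 0.05. Standard errors were derived from the log2 fold change and its F statistic. The fit was tested on simulated data. Reads carry no molecular identifiers named in the labels, so counts and floors cover counting error only.

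The genes and lists were chosen with earlier results of these data known. Values in every library are given by rule for genes that passed a test, for the 3 largest gonadal differences of each class at 20 CPM or more in the higher group, and for the 2 genes of each class with the highest TPM. Of the 4 pathway lists, up to 3 genes with the largest change in each direction among those that passed are named, and Ran, Ankle2, Tor1a and the named genes that did not pass were added after their values were seen. Mouse numbers mark the animal, so libraries are paired. Over 9 same-mouse pairs the deviations from group means correlated at -0.111 to 0.358 (mean 0.0842, against -0.0188 for other pairs). Alternatives were mouse as a replicate block, DESeq2 1.42.0, other scaling, no filter, a length offset, protein-coding genes alone, the 2 groups alone, each library left out, 2 libraries left out together and, chosen after seeing the data, protein-coding transcripts alone. The labels name no sequencing batch.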

Additional observations from a re-analysis of the deposited data

Results flagged for a closer look

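In groups of 4 libraries, 72 in number over the genes given library by library and the class sums, 5 held a library far from the other 3, and chance gives about 1 in 20 such groups. Kpna1 reached 104.6 CPM in the gonadal library of mouse 2668, with 77.2 CPM as the next. Ipo5 reached 42.9 CPM in the subcutaneous library of mouse 2771, with 26.7 CPM as the next. Nup205 reached 59.4 CPM in the gonadal and 53.1 CPM in the subcutaneous library of mouse 2668, with 49.2 and 39.2 CPM as the next. Summed exportins were low, at 312 CPM, in the subcutaneous library of mouse 2846, the shallowest, with 457 CPM as the next. No explanation of these values was tested.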

How the results depend on the processing

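Of 18 genes that passed the test in subcutaneous adipose against blood, 8 did so under all 21 alternatives (Ipo9, Kpna1, Nup188, Nup205, Nup93, Nup98, Xpo1 and Xpo4). With mouse as a replicate block, which the pairing of libraries by animal allows, 11 genes passed, and Ipo5, Ipo11, Nup54, Nup155, Nup160, Xpo6 and Xpot did not. With the effective length offset 11 passed, 10 genes were higher without overlap, and the importin median was 0.53. Leaving out 1 library at a time, 11 to 17 genes passed, with 11 without the blood library of mouse 2668. No filter on low counts left 12. Between the depots none passed under any alternative, and genes higher in gonadal adipose without overlap numbered 1 with protein-coding genes alone, 1 with the length offset and 2 to 5 with 1 library left out. The cause of these moves was not tested. No fold change of the 18 genes changed sign. Genes under about 2 CPM, such as Nup43, rest on few reads, fewest in the shallow subcutaneous library of mouse 2846.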
